A study of Mus musculus with 4 samples.

Results

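The Hedgehog signalling genes examined here are the ligand co-receptors Gas1, Cdon and Boc, the receptor Ptch1, the signal transducer Smo, the Gli inhibitor Sufu and the transcription factors Gli1, Gli2 and Gli3. They were taken by symbol from the authors' gene table, and each of the 9 names matched 1 of its 50600 rows. Expression was measured by RNA sequencing of total RNA from Py8119, a mouse mammary tumour line of strain C57BL/6 whose phenotype is labelled mesenchymal-like. A population overexpressing Mtss1 was compared with a control population labelled hygro, with 2 libraries each. All libraries came from untreated cells of the same line, grown in serum-containing IMDM. The vector, its promoter and the clonal or pooled origin of each population are not stated in the labels. The labels do not tell whether a group's libraries were separate cultures. The p-values therefore reflect library-to-library spread, possibly of technical origin alone.

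In Hedgehog signalling, a secreted ligand binds Ptch1 together with the co-receptors Gas1, Cdon and Boc. Ligand binding releases Smo from inhibition by Ptch1, and Smo then acts through the primary cilium to free Gli proteins from Sufu. Gli2 and Gli1 act mainly as activators, Gli3 mainly as a processed repressor, and Gli1 and Ptch1 are themselves induced when the pathway is on. Mtss1, an I-BAR scaffold protein, is itself a Hedgehog-responsive gene whose product is known to bind Gli proteins and Sufu. In the mammary gland, repression by Gli3 is known to keep the pathway low.

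Promoter windows (250 bases before to 50 after the annotated start, RefSeq, build GRCm38.p6) were available for 7 of the 9 genes, all but Gli1 and Boc. The windows of Gas1 and Cdon are shown because these co-receptors moved in opposite directions, and that of Gli2 because it was the only one of the 7 that held a GLI-type core. Capitals mark a CCAAT box in Gas1 and Cdon and the GLI core in Gli2. The windows are chr13:60177486-60177785 (minus strand) for Gas1, chr9:35451826-35452125 (plus strand) for Cdon and chr1:119053570-119053869 (minus strand) for Gli2.
Gas1: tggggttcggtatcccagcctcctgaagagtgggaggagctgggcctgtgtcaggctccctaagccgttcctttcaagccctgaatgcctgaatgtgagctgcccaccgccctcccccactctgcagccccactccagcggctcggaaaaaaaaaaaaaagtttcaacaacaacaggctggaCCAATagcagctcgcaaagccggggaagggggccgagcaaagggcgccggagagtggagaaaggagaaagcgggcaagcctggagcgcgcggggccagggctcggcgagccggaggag
Cdon: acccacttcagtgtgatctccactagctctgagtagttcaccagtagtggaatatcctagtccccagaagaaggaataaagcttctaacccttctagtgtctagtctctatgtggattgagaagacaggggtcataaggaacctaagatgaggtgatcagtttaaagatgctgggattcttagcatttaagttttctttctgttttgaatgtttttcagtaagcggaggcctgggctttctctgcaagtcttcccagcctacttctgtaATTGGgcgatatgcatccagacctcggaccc
Gli2: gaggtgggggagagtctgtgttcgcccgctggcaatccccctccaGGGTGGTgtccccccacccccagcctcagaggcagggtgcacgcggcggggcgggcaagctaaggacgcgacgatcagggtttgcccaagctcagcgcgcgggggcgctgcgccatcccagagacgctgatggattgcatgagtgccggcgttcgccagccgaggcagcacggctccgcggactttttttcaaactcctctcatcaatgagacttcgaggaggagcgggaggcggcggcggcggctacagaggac
The searches covered both strands. The core ACCACCC was present in 4.61% of 32851 windows, and the longer GLI consensus GACCACCCA, which contains it, in 0.253% and in none of the 7. The Gli2 match lay 205 bases before the start on the opposite strand. CCAAT, present in 37.4% of all windows, was found 68 bases before the start of Gas1 and 43 bases before that of Sufu, and after the start of Cdon on the opposite strand. The NF-kB consensus (4.51% of all windows) was in none of the 7. The windows of Cdon, Ptch1 and Gli3 lie inside the genes as GENCODE annotates them, whose outermost starts are further upstream. The Gas1 window lies wholly upstream of the gene as GENCODE annotates it, so its distance is from the RefSeq start. A match or its absence describes these letters only.

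Values are in CPM, reads scaled to a library of 1000000. A fold change is Mtss1 overexpression over control on the log2(CPM + 1) scale, which understates the change of low genes. It was tested with limma over the 12510 genes that reached 1 CPM in at least 2 libraries, and a call is a Benjamini-Hochberg adjusted p under 0.05. Mtss1 itself read 118 and 119 CPM in the overexpression libraries and 54.5 and 50.5 CPM in the control libraries (log2 fold change 1.16 ± 0.05 SE, limma adjusted p = 4.8e-15). Recovered depth was 15594209 and 16656638 reads with overexpression and 20617788 and 22081639 reads in control, so a gene at the same CPM had fewer reads with overexpression. The 7 mesenchymal markers, Vim and Fn1 among them, were all expressed. Of 10 epithelial markers, 3, Epcam among them, were at 0 in every library and 8 were under the filter, but the list summed to 601 and 603 CPM with overexpression and 849 and 893 CPM in control. Nearly all of that came from the keratin genes Krt8 and Krt18, which were both called lower (log2 fold changes -0.67 and -0.28), and their part in the results was not tested. Of 13 immune markers, 5 were at 0 throughout and the leukocyte marker Ptprc did not exceed 0.0980 CPM. Their summed level was nonetheless 96.7 and 96.3 CPM with overexpression and 22.4 and 21.3 CPM in control, most of it from the lysosomal gene Cd68. In bulk RNA, fewer cells with a transcript and less of it per cell cannot be told apart.

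Among the 8 genes that could be tested, the fitted change was largest at the co-receptor Gas1, which was lower with Mtss1 overexpression, while the low Gli1 and the co-receptor Cdon were higher. Gli2, with 1 read in each overexpression library, was the member under the expression filter. Among those 8, 2 rose (Gli1 and Cdon), 2 fell (Gas1 and Smo) and 4 did not pass the test (Ptch1, Gli3, Sufu and Boc). Over all tested genes 66.1% were called, 31.9% higher and 34.2% lower, so being called was common. Gli1 met the filter only through its overexpression libraries, so its difference was partly built into its being tested. Without overexpression 1 or overexpression 2 it could not be tested, and 1 gene rose; without control 2, 1 gene fell. The median log2 fold change of the 8 was -0.11, against -0.01 over all tested genes. Changes of at least 2-fold past the test were seen for Gas1 (lower) and Gli1 (higher). Over all tested genes 8.27% changed that much, 4.44% higher and 3.83% lower. The groups did not overlap for any of the 8, as for 81.6% of all tested genes.

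**Figure D1:**
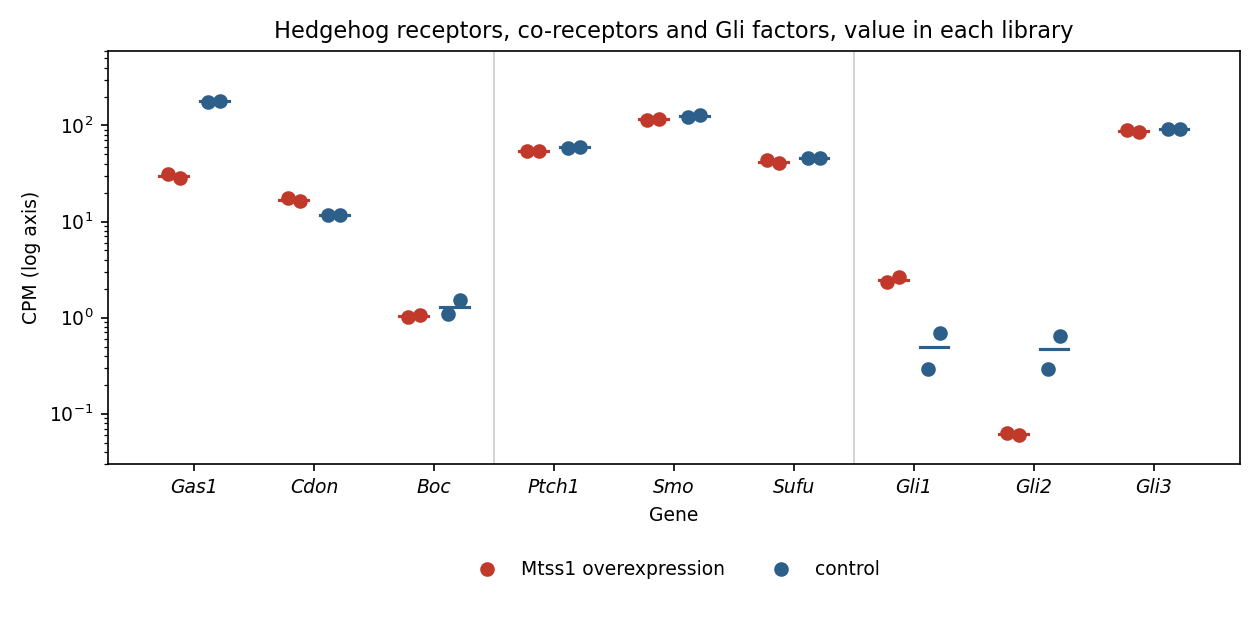
CPM on a log axis for each of the 9 genes in the 2 Mtss1 overexpression libraries (red, left) and the 2 control libraries (blue, right), with a bar at each group's mean. Gas1 stands at 31.4 and 28.6 CPM with overexpression, against 177 and 182 CPM in control, while Ptch1, Smo, Sufu and Gli3 lie close together in both groups.

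Gas1, a GPI-anchored co-receptor first described as a growth arrest gene, read 31.4 and 28.6 CPM in the overexpression libraries, against 177 and 182 CPM in the control libraries. Both overexpression libraries lay far below both control libraries. The means were 30.0 ± 2.00 CPM with overexpression and 179 ± 3.19 CPM in control (SD, n = 2 each), a 5.99-fold lower level. The log2 fold change was -2.54 ± 0.05 (SE), with a 95% interval of -2.65 to -2.43 and a limma adjusted p of 1e-20. On the log2(CPM + 1) scale, only 11 of the 12510 tested genes had a lower fitted fold change. That rank depends on the scale: with a pseudocount of 0.1, genes such as Cdh26 (-3.11) also fell below Gas1 (-2.58). The count rested on 498 and 480 reads with overexpression and on 3617 and 3948 reads in control. Gas1 is a single-exon gene of 2961 exonic bases, transcribed from the minus strand of chromosome 13 between 60174405 and 60177365 (GENCODE M21, mm10). An annotated long noncoding RNA on the other strand, Gm48488, shares 589 exonic bases with it and was not analysed here. No source used here gives the strand setting of the counting.

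Cdon, an immunoglobulin superfamily co-receptor, read 17.5 and 16.2 CPM with overexpression and 11.8 and 11.6 CPM in control. Its change was opposite in direction to that of Gas1 and much smaller. The means of 16.8 ± 0.899 CPM with overexpression and 11.7 ± 0.113 CPM in control (SD, n = 2 each) correspond to 1.44 times the control level. The log2 fold change was 0.49 ± 0.10 (SE; 95% interval 0.28 to 0.71; limma adjusted p = 0.00026). It is a plus-strand gene on chromosome 9 (35421128 to 35507652), with up to 20 exons. Boc, the close relative of Cdon, was scarce. Its values were 1.01 and 1.07 CPM with overexpression and 1.08 and 1.52 CPM in control, or 16 and 18 reads against 22 and 33 reads. The fitted difference, -0.17 ± 0.19 (SE) on the log2 scale, missed the threshold (limma adjusted p = 0.47), and its 95% interval of -0.57 to 0.24 leaves a change in either direction possible. Boc is a minus-strand gene on chromosome 16 (44485049 to 44558897).

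Levels of different genes were compared after division by exonic length, in CPM per kb of exon. Exonic length is the union of the exons of all annotated transcripts, 14185 bases over 10 transcripts for Ptch1 and 4451 over 1 for Boc. Orders of genes and ratios between genes depend on that choice. On this scale Gas1 made up 81.0% and 80.5% of the summed co-receptor level in the overexpression libraries, against 97.1% in each control library. The share of Cdon was 17.3% and 17.5% with overexpression, against 2.47% and 2.38% in control, and that of Boc 1.73% and 2.01% against 0.393% and 0.540%. Gas1 thus remained the most abundant co-receptor per length in all 4 libraries, at 4.64 times the Cdon level on average with overexpression and 40.0 times in control. The summed co-receptor level was 13.1 and 11.99 CPM per kb with overexpression and 61.6 and 63.2 CPM per kb in control. Per kb, Boc averaged 0.234 CPM with overexpression and 0.292 CPM in control, and Cdon 2.18 and 1.51 CPM. The larger shares of Boc and Cdon with overexpression thus mostly reflect the lower Gas1 level in the sum. With 2 libraries a group, the exact two-sided permutation test cannot give a p below 0.333, which each of these shares and sums reached.

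**Figure D2:**
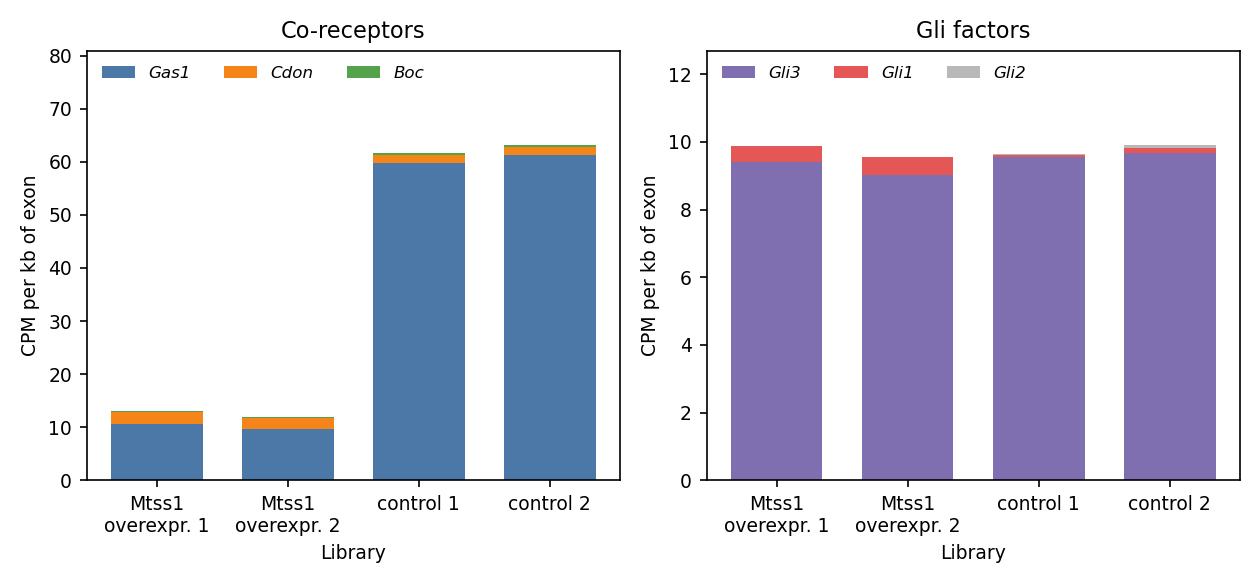
CPM per kb of exon in each library, Mtss1 overexpression left and control right, stacked for the co-receptors (left panel) and the Gli factors (right panel). The co-receptor stack is 13.1 and 11.99 with overexpression, against 61.6 and 63.2 in control, and the Gli stack, nearly all Gli3, stays between 9.56 and 9.92 in the 4 libraries.

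The receptor Ptch1, which holds Smo inactive until ligand binds, read 54.9 and 54.4 CPM with overexpression and 58.3 and 59.8 CPM in control. The overexpression libraries were slightly the lower. The fitted difference of -0.11 ± 0.05 (SE) on the log2 scale missed the threshold (limma adjusted p = 0.082; 95% interval -0.22 to 0.0035). Smo, the seven-pass transmembrane transducer, read 115 and 118 CPM with overexpression and 124 and 128 CPM in control. Its fold change was of the same size, -0.11 ± 0.04 (SE; 95% interval -0.20 to -0.02), and passed narrowly (limma adjusted p = 0.029). That call was lost with library-size scaling (0.13), with no expression filter (0.058), without control 2 (0.18) and without overexpression 1 (0.14). Per kb of exon, the Smo level was 5.29 and 5.49 times that of Ptch1 with overexpression and 5.37 and 5.39 times in control (exact permutation p = 1). Ptch1 is a minus-strand gene on chromosome 13 (63508328 to 63573598), and Smo a plus-strand gene on chromosome 6 (29735503 to 29761365).

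Sufu, which binds Gli proteins and keeps them inactive, read 43.6 and 40.3 CPM with overexpression and 46.3 and 45.4 CPM in control. The groups were close, with a log2 fold change of -0.13 ± 0.06 (SE; 95% interval -0.26 to 0.0044) that did not pass (limma adjusted p = 0.083). Without overexpression 1 it did pass (-0.18, limma adjusted p = 0.036). Sufu is a plus-strand gene on chromosome 19 (46396896 to 46488804). For Ptch1, Smo, Sufu and Gli3, the lower bound of each 95% interval was -0.26 or nearer to 0, whereas the interval of Gas1 ran from -2.65 to -2.43.

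Gli1, the activator whose transcription is the usual readout of the pathway, read 2.33 and 2.62 CPM with overexpression and 0.294 and 0.690 CPM in control. These are 37 and 44 reads with overexpression and 6 and 15 reads in control. The means of 2.48 ± 0.203 CPM with overexpression and 0.492 ± 0.280 CPM in control (SD, n = 2 each) differ 5.03-fold. From the summed reads the ratio was 4.98, with a 95% interval of 3.05 to 8.47 that covers counting error only. The log2 fold change was 1.23 ± 0.20 (SE; limma adjusted p = 9.9e-06). The size of this change depended on how low values were scaled, from 0.45 with a pseudocount of 5 to 2.38 with limma-voom. Gli1 shares 62 exonic bases with Arhgap9, a gene on the other strand that read 0.882 and 0.476 CPM with overexpression and 1.08 and 1.01 CPM in control. Gli1 is a minus-strand gene on chromosome 10 (127329882 to 127341974).

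Gli2, the main activator that responds first to the signal, was close to silent. It read 0.0630 and 0.0595 CPM with overexpression, which is 1 read in each library, and 0.294 and 0.644 CPM in control, which is 6 and 14 reads. The overexpression libraries were below 3 reads and the control libraries above. The ratio of overexpression to control from the summed reads was 0.129 (95% counting interval 0.0146 to 0.531). Gli2 was under the expression filter and so not among the genes tested. With no filter its log2 fold change was -0.46 ± 0.13 (SE, limma adjusted p = 0.033). Gli2 is a minus-strand gene on chromosome 1 (118834132 to 119053619).

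Gli3, which yields the pathway's repressor, was the prevailing Gli transcript. It read 90.1 and 86.5 CPM with overexpression and 91.6 and 92.9 CPM in control, a log2 fold change of -0.06 ± 0.05 (SE; 95% interval -0.16 to 0.03) that did not pass (limma adjusted p = 0.25). Per kb of exon, Gli3 made up 95.2% and 94.4% of the summed Gli level with overexpression, against 99.0% and 97.7% in control. Gli1 made up 4.73% and 5.49% with overexpression, against 0.610% and 1.39% in control, and Gli2 less than 1% in every library. The ratio of Gli3 to Gli1 was 20.1 and 17.2 with overexpression, against 162 and 70.1 in control. The control ratios differ by more than 2-fold between themselves and rest on 6 and 15 Gli1 reads. The summed Gli level did not separate the groups, at 9.88 and 9.56 CPM per kb with overexpression and 9.65 and 9.92 CPM per kb in control (exact permutation p = 0.667). Gli3 is a plus-strand gene on chromosome 13 (15463235 to 15730026), and Gm6556 on the other strand, at 1.65 CPM or less in any library, shares 188 exonic bases with it.

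**Figure D3:**
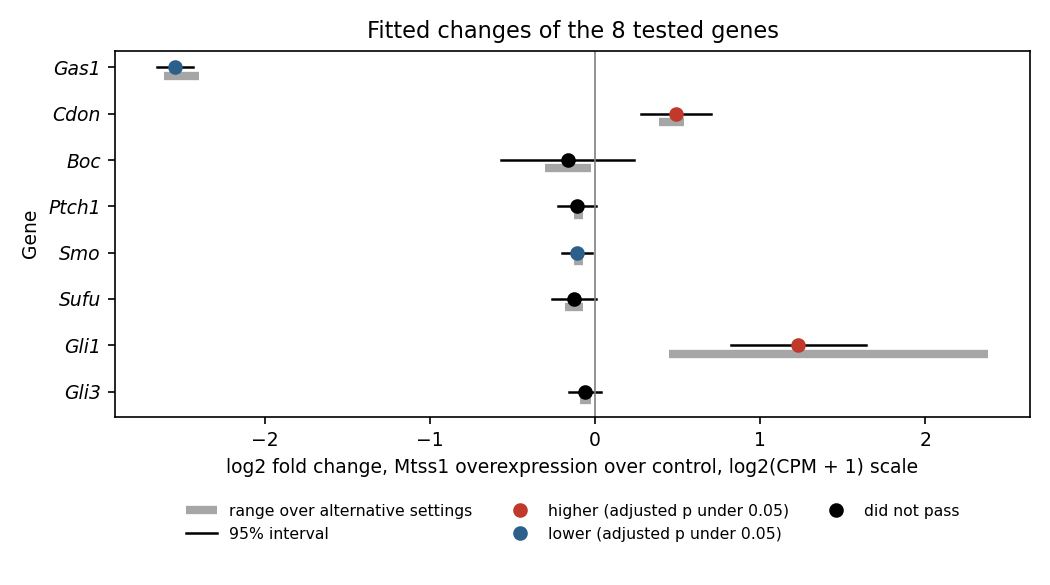
Log2 fold change (Mtss1 overexpression over control, log2(CPM + 1) scale) of the 8 tested genes, with the 95% interval as a line, the call as the point's colour and the range over the alternative settings as a grey bar. Gas1 lies at -2.54 and Gli1 at 1.23 with a grey bar from 0.45 to 2.38, while 5 genes lie between -0.17 and -0.06.

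In order of level per kb of exon, the overexpression libraries ran Smo, Gas1, Gli3, Sufu, Ptch1, Cdon, Gli1, Boc and Gli2. The mean levels with overexpression were 20.8, 10.1, 9.21, 5.45, 3.85, 2.18, 0.496, 0.234 and 0.00892 CPM per kb. In control the order was Gas1, Smo, Gli3, Sufu, Ptch1, Cdon, Boc, Gli1 and Gli2, with means of 60.6, 22.4, 9.62, 5.96, 4.16, 1.51, 0.292, 0.0985 and 0.0683 CPM per kb. Gas1 was therefore first in control and second to Smo with overexpression, and Gli1 exchanged places with Boc. In control, the ranges of Gli1 (0.0588 to 0.138) and Gli2 (0.0428 to 0.0938) overlapped, and no other neighbours in either order did.

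The genes whose values followed Gas1 most closely over the 4 libraries, by Euclidean distance between centred log2(CPM + 1) values, were the cadherin gene Cdh26 (distance 0.0577), the postsynaptic scaffold gene Dlgap2 (0.0761) and the ferlin gene Fer1l6 (0.166). Cdh26 read 1.58 and 1.31 CPM with overexpression and 13.3 and 12.9 CPM in control. Its log2 fold change was -2.53 on the log2(CPM + 1) scale, beside -2.54 for Gas1. With a pseudocount of 0.1 the log2 fold changes were -3.11 for Cdh26 and -2.58 for Gas1. Those closest to Gli1 were Erc2 (0.0621), Fam46b (0.0663) and Entpd3 (0.125), which encode a presynaptic active-zone protein, a noncanonical poly(A) polymerase and an ectonucleotidase. Erc2, like Gli1, met the filter only through its overexpression libraries, at 1.95 and 2.32 CPM, against 0.147 and 0.460 CPM in control. The log2 fold changes with a pseudocount of 0.1 were 2.20 for Gli1, 2.58 for Erc2, 1.36 for Fam46b and 1.30 for Entpd3. With 4 libraries in 2 groups, a small distance requires little more than a fold change of similar size on the log2(CPM + 1) scale.

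The ligand genes were scarcely detected, and the genes for release and reception of the ligand that could be tested were more often lower than higher with overexpression. Shh had 0 reads in every library, which allows levels up to the 0.138 to 0.189 CPM that 3 reads make up, and Ihh had 2 reads in all, both in control 1. Dhh read 0.441 and 0.179 CPM with overexpression, which is 10 reads in all, and had 0 reads in both control libraries. Set against a floor of 3 reads over the control group, that is 4.30-fold higher, a ratio that leaves out the counting error of the 10 reads. Of 19 ligand, release and ligand-binding genes, 9 were under the filter, 7 fell, 2 rose and 1 did not pass, with a median log2 fold change of -0.24 over the 10 tested. Over all tested genes 34.2% fell and 31.9% rose. Disp2, a homologue of the ligand-releasing transporter Disp1, fell most, reading 12.9 and 10.5 CPM with overexpression and 47.6 and 52.1 CPM in control (log2 fold change -2.01 ± 0.09 SE). The secreted release factor gene Scube3 fell to 0.882 and 0.536 CPM with overexpression, against 2.35 and 2.85 CPM in control (-1.08 ± 0.19). It met the filter only through its control libraries, and could not be tested when either was left out, so its difference was partly built into its being tested. Of the glypican genes, whose products are cell-surface heparan sulphate proteoglycans, Gpc4 rose by 0.73 ± 0.06 and Gpc6 fell by 0.57 ± 0.09. Each of these 4 had a limma adjusted p of at most 3.5e-05. The count of genes that fell was 4 without control 2, and with no filter 4 genes rose.

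Genes known to respond to Gli proteins moved in both directions. Hhip, a membrane protein that captures the ligand, read 0.315 and 0.298 CPM with overexpression and 0 and 0.0460 CPM in control, or 10 reads in all against 1 (ratio 12.9, 95% counting interval 1.84 to 559.8). It was far under the filter. Of 30 genes listed as targets in various tissues, Hhip included, 13 were under the filter, 9 fell, 6 rose and 2 did not pass, with a median of -0.23. These counts stand beside 34.2% lower and 31.9% higher among all tested genes. The forkhead gene Foxl1 fell to 3.15 and 2.98 CPM with overexpression, against 8.08 and 8.05 CPM in control (-1.16 ± 0.14 SE). The cell cycle inhibitor gene Cdkn1a fell by 0.86 ± 0.10, whereas the Wnt antagonist gene Sfrp1 (1.11 ± 0.17) and Bmp4 (0.70 ± 0.05) rose. All 4 had a limma adjusted p of at most 7.3e-06.

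Among 35 genes that carry or restrain the signal between Smo and the Gli proteins, 34 were tested, of which 12 rose, 10 fell and 12 did not pass (median 0.02). Over all tested genes, as given above, 31.9% were higher and 34.2% lower. Prkaca, which encodes a catalytic subunit of the protein kinase A that promotes Gli3 processing, rose with overexpression. It read 143 CPM in both overexpression libraries, against 97.9 and 97.2 CPM in control (log2 fold change 0.55 ± 0.04 SE, limma adjusted p = 1.2e-10). Prkacb, the gene of another catalytic subunit, read 139 and 144 CPM with overexpression and 137 and 142 CPM in control. Its change did not pass (0.02 ± 0.04, limma adjusted p = 0.73), and the regulatory subunit gene Prkar1a fell slightly (-0.15 ± 0.04). The receptor kinase gene Grk3 (-0.67 ± 0.18), the basal body gene Dzip1l (-0.59 ± 0.17) and Hdac1, which encodes a deacetylase of Gli proteins (-0.49 ± 0.05), fell. Grk3 did not pass without control 2 (limma adjusted p = 0.092). The number that fell was 6 with no filter, with library-size scaling and without control 2.

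Of 87 genes of the primary cilium, the organelle in which Smo and the Gli proteins meet, 80 were tested, and 36 fell, 19 rose and 25 did not pass. The median log2 fold change was -0.16. These counts stand beside 34.2% lower and 31.9% higher among all tested genes. Tmem231, a transition zone gene, rose to 47.7 and 44.6 CPM with overexpression, against 18.4 and 20.2 CPM in control (1.21 ± 0.08 SE). The ciliary planar polarity gene Wdpcp (-1.08 ± 0.11), the transition zone gene Mks1 (-1.02 ± 0.16) and the intraflagellar transport gene Ift74 (-0.90 ± 0.07) fell. In this set of 4 the limma adjusted p was at most 1.1e-05. The 14 listed genes with an Ift symbol were grouped after their values were seen. Of them 10 fell, 2 rose and 2 did not pass (median -0.31). Among listed subunit genes of the same transport complexes under other symbols, Wdr35 fell (-0.24) and Ttc26 rose (0.29). Wdr19, Ttc21b, Traf3ip1 and Cluap1 did not pass.

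**Figure D4:**
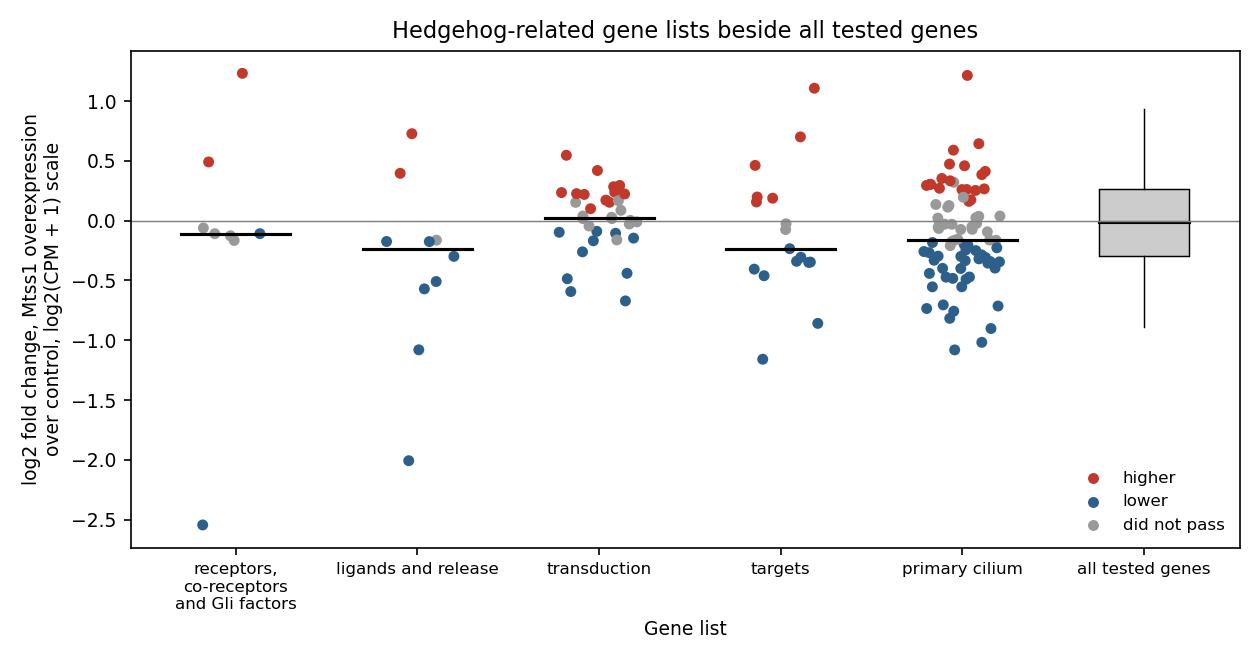
Log2 fold change (Mtss1 overexpression over control, log2(CPM + 1) scale) of the tested genes in each Hedgehog-related list, coloured by call, with a bar at the list median, and for all tested genes a box from the 25th to the 75th percentile (-0.29 to 0.27) with lines to the 5th and 95th (-0.89 and 0.93). Gas1 at -2.54 and Disp2 at -2.01 are the lowest points, and the list medians lie between -0.24 and 0.02.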

How the data were processed

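Total RNA of 4 Py8119 libraries was sequenced as paired ends, per the labels' protocols. FastQC 0.11.2, STAR, RSEM and the build mm10 are named in the submitters' processing notes, without roles. The deposited unit was taken to be CPM, since column totals lie between 982877 and 1016225. How the authors scaled them is not stated. Values are multiples of a step, taken as the CPM of 1 read, and were whole within 0.005 read for 79.6% to 80.5% of nonzero entries, so reads are expected counts. A floor of 3 reads is 0.138 to 0.189 CPM.

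Genes that reached 1 CPM in 2 or more libraries were tested with limma 3.58.1 in R 4.3.3 on log2(CPM + 1), with a mean-dependent prior and Benjamini-Hochberg adjustment over all 12510. The fit has 2 residual degrees of freedom per gene, and the prior adds 19.96. The p-values therefore rest mostly on spread shared across genes. Counting intervals are exact binomial at 95%. Coordinates and exonic lengths are from GENCODE M21, which holds 50376 of the 50600 identifiers. The fit was also run on simulated data in which few genes changed. In the real data 66.1% of the tested genes were called, so that run does not gauge the p-values given here. The members and lists were chosen with earlier results of these data known, and motifs after the table was seen. Besides the 9 genes, the text names Mtss1, Shh, Ihh, Dhh, Hhip, the 4 largest changes past the test in each list, and the 3 nearest patterns to each member that changed at least 2-fold. A gene that this rule names is not reported here. Marker genes, overlapping genes, Disp1, Prkacb, Prkar1a and the intraflagellar transport subunit genes without an Ift symbol are named beside them. Alternatives were 2 other pseudocounts, 2 other filters, 2 scalings, limma-voom, a replicate block and leaving out each library.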

Additional observations from a re-analysis of the deposited data

How the results depend on the processing

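Over 12 alternative settings the 8 tested genes gave 93 values, of which 93 kept their direction and 88 kept both direction and call. The other 5 concerned Smo, whose call was lost with no filter (-0.11), with library-size scaling (-0.071), and, among libraries left out one at a time (-0.13 to -0.087), without control 2 or overexpression 1, and Sufu, which passed without overexpression 1 (-0.18 to -0.071 over libraries left out). Gli1 could not be tested under a filter of 1 CPM in every library or without either overexpression library, which reduced the genes that rose to 1 (range 1 to 2 over libraries left out). The genes that fell numbered 1 with library-size scaling (1 to 2 over libraries left out). The median of the tested members was -0.11, and -0.072 with library-size scaling, which moved the median of all genes to 0.02 (-0.12 to -0.069 over libraries left out). In the ligand list 4 genes rose with no filter, and between 4 and 7 fell with a library left out. In the transduction list 6 fell with no filter and 6 with library-size scaling (6 to 8 with a library left out). The cause of these shifts was not tested. With the replicate number as a block, 2 members rose and 2 fell, as without it, and all genes gave 4040 higher and 4337 lower. Between same-numbered libraries the deviations had a correlation of -0.02 across genes. With 2 libraries a group, this cannot tell whether the numbers pair them. Depth limits Gli1, Gli2, Boc, Dhh and Hhip most.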
